A study of Homo sapiens with 8 samples.

Results

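The 7 genes for phosphofructokinase and for the bifunctional PFKFB enzymes were followed through 24 h of hypoxia in SJRH30 cells, a human rhabdomyosarcoma line. Probe sets, the groups of short probes that an expression array uses to read a transcript, were taken as members when their annotated symbol was exactly PFKL, PFKM, PFKP, PFKFB1, PFKFB2, PFKFB3 or PFKFB4. This gave 9 of the 22277 probe sets in the table, with 2 each for PFKL and PFKFB2 and 1 for every other gene, or 7 of the 11963 genes named by a probe set of their own. Cells grown in RPMI medium with serum were collected before hypoxia (0 h) or after 6, 12 and 24 h in a chamber at 1% oxygen, with 2 arrays per time that the labels call biological replicates. Nothing in the labels says whether these came from separate cultures, so p-values measure the spread between arrays, which may be technical. All 8 arrays come from a single line, and the 0 h arrays are their only controls, so low oxygen and time in culture cannot be told apart.

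The labels give the cell type as muscle fibroblasts. Of 8 myogenic and rhabdomyosarcoma marker genes, 6 lay in the brightest 25% of probe sets, against 0 of 7 fibroblast markers. At 0 h MYOD1 was at 12.1 and CHRNA1 at 11.5 on the log2 scale, while MYF5 was dim at 4.12. The brightest fibroblast marker, COL1A1, was at 8.19 and above the median brightness. The counts go against that label, as far as brightness can be compared between probe sets. All values are log2 RMA summaries, relative to the other transcripts on the same array, so less RNA per cell and fewer cells expressing a gene cannot be told apart. The median difference between the replicates of a time lay between 0.062 and 0.101 over all probe sets. Added poly-A control RNAs were higher on the hypoxic arrays than at 0 h by 0.41, 0.38 and 0.58 at 6, 12 and 24 h over 27 probe sets, and hybridisation controls by 0.25, 0.19 and 0.19 over 18. Their part in the changes below was not tested.

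Phosphofructokinase phosphorylates fructose 6-phosphate at the first committed step of glycolysis. Its subunits are encoded by PFKM, named for muscle, PFKL, named for liver, and PFKP, named for platelets, and they assemble into tetramers that can mix. The PFKFB enzymes carry a kinase and a phosphatase in 1 protein and make or remove fructose 2,6-bisphosphate, the strongest known activator of phosphofructokinase. PFKFB3 has mostly kinase activity and is a known target of the hypoxia-inducible factors (HIF), the transcription factors that respond to low oxygen. PFKFB1 is known from liver and muscle, PFKFB2 from heart and PFKFB4 from testis and tumours.

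Promoter windows of these genes are shown for the letters that HIF binds. RefSeq windows of 300 bases (250 before to 50 after a start site, build GRCh38.p14) were found for 6 of the 7 genes, all but PFKFB2. There were 17 windows in all, since PFKM has 7 and PFKP 4 listed starts. They were searched on both strands for ACGTG and GCGTG, the core of the hypoxia response element. Capitals mark the matches. The windows printed were picked because they hold a match, for the genes that were called and for PFKM, which was not.
PFKFB3, chr10:6202682-6202981, strand +: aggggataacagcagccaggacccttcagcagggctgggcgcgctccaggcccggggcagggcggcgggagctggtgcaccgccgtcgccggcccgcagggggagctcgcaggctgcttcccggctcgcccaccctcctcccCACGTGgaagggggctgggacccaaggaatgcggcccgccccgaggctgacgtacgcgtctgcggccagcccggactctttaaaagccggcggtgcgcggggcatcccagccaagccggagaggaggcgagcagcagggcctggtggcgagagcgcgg
PFKP, chr10:3068939-3069238, strand +: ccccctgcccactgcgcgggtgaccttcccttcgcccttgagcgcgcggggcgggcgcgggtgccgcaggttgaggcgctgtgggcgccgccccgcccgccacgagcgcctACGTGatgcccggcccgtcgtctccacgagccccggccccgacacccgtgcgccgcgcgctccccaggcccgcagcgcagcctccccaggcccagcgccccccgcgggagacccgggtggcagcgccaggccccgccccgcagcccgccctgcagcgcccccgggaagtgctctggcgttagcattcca
PFKL, chr21:44299803-44300102, strand +: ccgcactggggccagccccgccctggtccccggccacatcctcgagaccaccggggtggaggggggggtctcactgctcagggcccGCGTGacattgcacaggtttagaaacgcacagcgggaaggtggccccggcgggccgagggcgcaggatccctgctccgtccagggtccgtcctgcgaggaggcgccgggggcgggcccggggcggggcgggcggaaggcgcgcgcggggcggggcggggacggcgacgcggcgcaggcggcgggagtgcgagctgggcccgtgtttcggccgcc
PFKFB4, chr3:48556754-48557053, strand -: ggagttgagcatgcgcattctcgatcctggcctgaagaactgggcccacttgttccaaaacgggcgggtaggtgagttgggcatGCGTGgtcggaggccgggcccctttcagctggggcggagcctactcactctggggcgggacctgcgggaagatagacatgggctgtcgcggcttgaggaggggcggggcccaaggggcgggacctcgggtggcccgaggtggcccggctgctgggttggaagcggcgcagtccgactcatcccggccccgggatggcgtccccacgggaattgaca
PFKM, chr12:48105231-48105530, strand +: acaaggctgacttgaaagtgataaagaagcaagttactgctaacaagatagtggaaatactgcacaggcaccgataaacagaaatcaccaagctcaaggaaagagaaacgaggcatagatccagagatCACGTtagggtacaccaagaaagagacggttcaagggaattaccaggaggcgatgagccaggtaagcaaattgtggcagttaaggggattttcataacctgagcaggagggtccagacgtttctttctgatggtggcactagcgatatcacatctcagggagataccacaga
In the PFKFB3 window the letters CACGTG hold ACGTG once on each strand, overlapping, from 108 and 107 bases before the start. The PFKP window holds ACGTG 139 bases before its start, and those of PFKL and PFKFB4 hold GCGTG 164 and 166 bases before theirs. The PFKM window holds ACGTG on the opposite strand, 122 bases before the start, and a second overlapping PFKM window holds the same site. Of all 35114 windows of this length, 21.4% hold ACGTG, 36.5% GCGTG and 48.4% either, against 8 of the 17 windows of these genes with either. Of the other PFKP windows 1 holds GCGTG, and the other PFKFB3 window holds it on the opposite strand 168 bases before its start. The 2 windows of PFKFB1 hold no match, and of the 7 PFKM windows 2 hold one. These matches describe letters in the windows and nothing about binding in these cells.

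PFKFB3 and PFKP were higher than at 0 h at 6, 12 and 24 h, PFKL at 12 and 24 h and PFKFB4 at 12 h, and PFKM, PFKFB1 and PFKFB2 were not called at any time. At 6 h 2 of 9 probe sets were called higher by limma at an adjusted p under 0.05, against 1.85% of all 22215 probe sets tested, at 12 h 5 of 9 (background 6.36%) and at 24 h 4 of 9 (background 6.86%). None of the 9 was called lower by limma (background 0.855%, 9.85% and 7.8%), and 1, PFKFB2 209992_at at 24 h, was lower at an unadjusted p of 0.04. An F-test of the 3 changes against 0 h called 4 of 9 (background 12.6%), namely PFKFB3, PFKP and both probe sets of PFKL. The median change of the 9 was 0.10, 0.50 and 0.33 at 6, 12 and 24 h, and that of all probe sets tested was -0.02, 0.00 and -0.02.

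**Figure D1:**
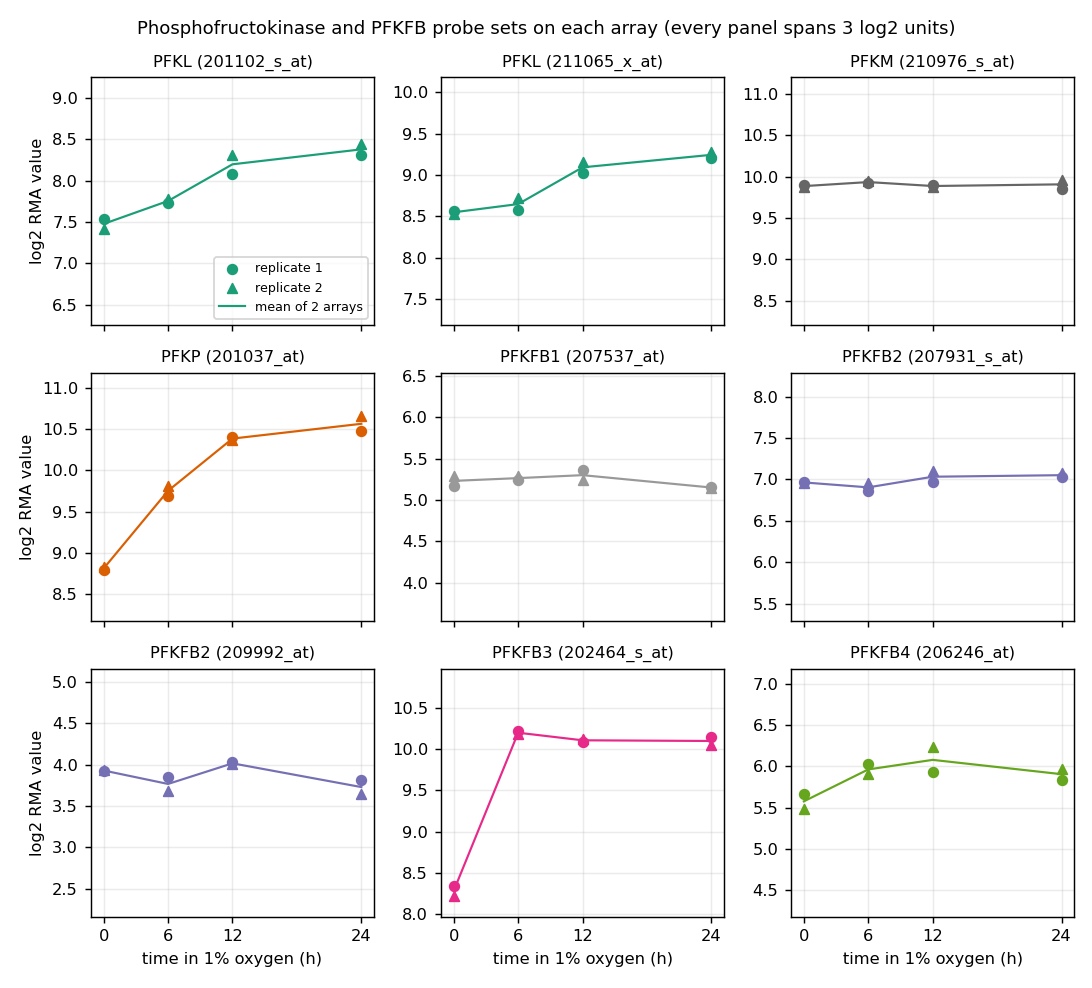
Log2 RMA value of each probe set on each array against hours in 1% oxygen, with circles and triangles for replicates 1 and 2 and a line through the means. Panels have their own range of 3 log2 units and levels are not compared between them; PFKFB3 is at its highest mean at 6 h (10.20) and PFKP at 24 h (10.56), while PFKM stays between 9.85 and 9.96 on every array.

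Of the phosphofructokinase subunits, PFKP changed most. Its log2 value was 8.79 and 8.83 at 0 h, 9.70 and 9.81 at 6 h, 10.40 and 10.36 at 12 h, and 10.47 and 10.65 at 24 h. The arrays of the 4 times did not overlap, and each later time lay above the one before. The last step, 0.18 from 12 to 24 h, was not called (limma adjusted p = 0.31). The rise against 0 h was 0.94 ± 0.08 (SE) at 6 h, 1.57 at 12 h and 1.75 at 24 h (limma adjusted p = 0.00122, 4.19e-05 and 2.11e-05). It corresponds to 1.92-fold, 2.97-fold and 3.36-fold, and at 24 h it was rank 26 among the rises of all 22215 probe sets. From 6 to 24 h PFKP rose by a further 0.81 ± 0.08 (adjusted p = 0.00527).

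PFKL was called higher at 12 and 24 h but not at 6 h. Its brighter probe set, 211065_x_at, read 8.57 and 8.53 at 0 h, 8.58 and 8.72 at 6 h, 9.03 and 9.16 at 12 h, and 9.21 and 9.28 at 24 h. The 6 h arrays lay just above the 0 h arrays, and those of 12 and 24 h were clearly higher. Against 0 h its change was 0.10 ± 0.08 at 6 h (adjusted p = 0.573), and it rose by 0.54 at 12 h and 0.70 at 24 h (adjusted p = 0.00438 and 0.00141). The other probe set, 201102_s_at, was at 7.54 and 7.41 at 0 h, 7.72 and 7.78 at 6 h, 8.08 and 8.31 at 12 h, and 8.31 and 8.45 at 24 h. Its change was 0.28 ± 0.09 at 6 h (adjusted p = 0.177, or 0.044 when the dimmer 50% of probe sets were removed), and it rose by 0.72 and 0.90 at 12 and 24 h (adjusted p = 0.0034 and 0.00112). Both probe sets gave the same order of times, 0, 6, 12 and 24 h, in which no neighbouring pair passed the test, while 24 h stood above 6 h by 0.60 and 0.62 (adjusted p = 0.0162 and 0.0257). The change of 201102_s_at exceeded that of 211065_x_at by 0.21 at 24 h (95% interval 0.04 to 0.37).

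PFKM, the muscle isoform, showed no called change in this myogenic line. It read 9.89 and 9.88 at 0 h, 9.92 and 9.95 at 6 h, 9.90 and 9.87 at 12 h, and 9.85 and 9.96 at 24 h. The ranges of 12 and 24 h overlapped that of 0 h, the 6 h arrays lay slightly above it, and no neighbours in the order of its levels differed beyond their spread. Its changes were 0.05, 0.00 and 0.02, and the 95% interval at 24 h ran from -0.12 to 0.16.

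Among the PFKFB genes PFKFB3 had the largest rise. It stood at 8.35 and 8.22 at 0 h, 10.22 and 10.17 at 6 h, 10.08 and 10.13 at 12 h, and 10.15 and 10.04 at 24 h. All 6 hypoxic arrays lay close together and far above both 0 h arrays. The rise was 1.91 ± 0.07 at 6 h, 1.82 at 12 h and 1.81 at 24 h (adjusted p = 1.35e-05, 1.34e-05 and 1.13e-05), that is 3.76-fold, 3.53-fold and 3.51-fold. Among the rises of all probe sets it was rank 9 at 6 h, 17 at 12 h and 21 at 24 h. No pair of hypoxic times passed the test (24 h minus 6 h, -0.10, 95% interval -0.26 to 0.06).

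PFKFB4 was dim, with 38.8% of probe sets at or below its mean brightness, and its rise was small. It read 5.67 and 5.48 at 0 h, 6.02 and 5.90 at 6 h, 5.93 and 6.23 at 12 h, and 5.84 and 5.97 at 24 h. Every hypoxic array was above both 0 h arrays, and the hypoxic times overlapped each other. The change was 0.39 ± 0.12 at 6 h (adjusted p = 0.137), 0.50 ± 0.12 at 12 h (adjusted p = 0.0259) and 0.33 ± 0.12 at 24 h (adjusted p = 0.104), so only 12 h was called. That call was lost without 0 h replicate 1, 0 h replicate 2 or 12 h replicate 2 (limma adjusted p = 0.0677, 0.161 and 0.0845) and with the 2 times fitted alone (0.0854). At 24 h a call was gained without either 12 h array (adjusted p = 0.0402).

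The last 3 probe sets were not called. PFKFB1, from 5.14 to 5.36 over all arrays, was at 0.03, 0.07 and -0.08 against 0 h, with 29.1% of probe sets at or below its brightness. PFKFB2 was read by 207931_s_at, from 6.86 to 7.10 on the arrays, with changes of -0.06, 0.07 and 0.09. Its second probe set, 209992_at, lay among the dimmest 8.32%, between 3.64 and 4.03, with changes of -0.16, 0.09 and -0.20 (adjusted p at 24 h = 0.152). The difference between the changes of these PFKFB2 probe sets at 24 h was -0.29, with a 95% interval from -0.66 to 0.08.

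**Figure D2:**
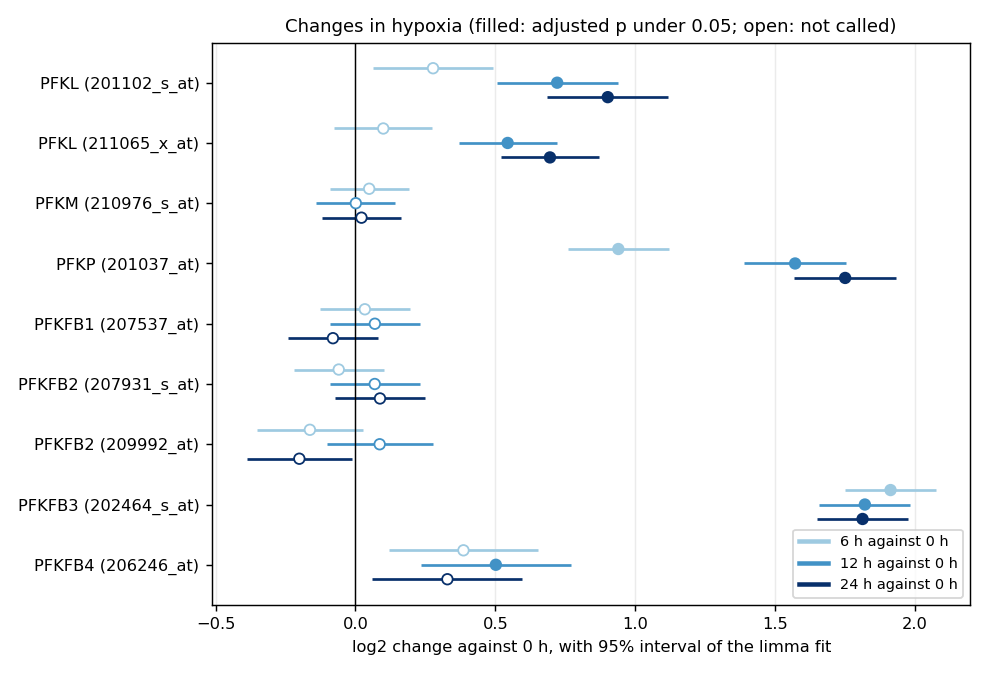
Log2 change of each probe set against 0 h at 6, 12 and 24 h, with 95% intervals of the limma fit; filled points passed an adjusted p of 0.05. PFKFB3 is at its full rise at 6 h (1.91), PFKP is called at 6 h (0.94) and higher at 24 h (1.75), PFKL is called at 12 and 24 h, and the intervals of PFKM, PFKFB1 and the brighter PFKFB2 probe set include 0 at every time.

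PFKFB3 differed in timing from PFKP and PFKL. The 6 h change of PFKFB3 was 106% of its 24 h change, that of PFKP 53.7%, and those of the PFKL probe sets 14.3% and 30.8%. At 12 h the corresponding shares were 100.5%, 89.8%, 78.2% and 79.9%. At 6 h PFKFB3 had risen more than PFKP by 0.97 (95% interval 0.60 to 1.35), and at 24 h this difference was 0.06 (-0.31 to 0.43). From 6 to 24 h PFKP gained 0.91 on PFKFB3 (PFKFB3 minus PFKP -0.91, interval -1.28 to -0.54). PFKL, read by 211065_x_at, gained 0.70 on PFKFB3 (PFKFB3 minus PFKL -0.70, interval -0.97 to -0.42). These comparisons between families were chosen after the changes were seen.

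Between hypoxic times 1 of 9 probe sets was called from 6 to 12 h, PFKP, which rose by 0.63 (adjusted p = 0.0439, background 0.081%). That call was lost with the replicate number as a block and with the 2 times fitted alone (limma adjusted p = 0.0969 and 0.212). In both fits 0% of all probe sets were called from 6 to 12 h. It was also lost without any single array other than 12 h replicate 1, with few or none of all probe sets called. PFKP rose by 0.57 to 0.69 in those fits. From 12 to 24 h 0 of 9 were called by limma (background 0.144%), and 1, the dim PFKFB2 probe set 209992_at, was under an unadjusted 0.05. From 6 to 24 h 3 of 9 were called higher (background 1.05%), PFKP and both PFKL probe sets. Leaving out a 6 h array ended these calls and leaving out a 0 h or 24 h array kept that of PFKP only. Calls over all probe sets were also fewer in those fits. Leaving out a 12 h array kept all of these calls, with more calls over all probe sets. With an array left out the changes lay between 0.72 and 0.90 for PFKP. Those of PFKL lay between 0.52 and 0.67 for 211065_x_at and between 0.55 and 0.69 for 201102_s_at.

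Isoenzyme genes were compared by the difference between their changes, within an array, in 9 pairs at 3 times. PFKL and PFKFB2 were read by their brighter probe sets, 211065_x_at and 207931_s_at. Intervals come from the residuals of each pair, with 4 degrees of freedom, and are not adjusted for the number of pairs. Among the phosphofructokinase subunits PFKP rose more than PFKM by 0.89 (95% interval 0.77 to 1.01) at 6 h, 1.57 (1.45 to 1.69) at 12 h and 1.73 (1.60 to 1.85) at 24 h. On the arrays the log2 difference of PFKP and PFKM, set to 0 h, was 0.85 and 0.93 at 6 h, 1.58 and 1.56 at 12 h, and 1.69 and 1.77 at 24 h. PFKP also rose more than PFKL, by 0.84, 1.03 and 1.05 (at 24 h 0.83 to 1.28). From 6 to 24 h PFKP minus PFKL was 0.21 (-0.01 to 0.44), so a difference in their later gain in log2 units was not shown. Their total rises differ, so this interval does not compare timing. The shares of the 24 h change reached at 6 h, 53.7% for PFKP and 14.3% and 30.8% for the PFKL probe sets, were not tested against each other. PFKL and PFKM differed by 0.05 (-0.14 to 0.24) at 6 h, and by 0.54 (0.35 to 0.73) and 0.67 (0.48 to 0.87) at 12 and 24 h. The dimmer PFKL probe set, 201102_s_at, rose more than 211065_x_at by 0.18, 0.18 and 0.21 at 6, 12 and 24 h. The size of the PFKL differences therefore depends on the probe set.

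In the PFKFB family PFKFB3 rose more than each of the other genes at every time. Against PFKFB4 the difference was 1.53 (95% interval 1.16 to 1.89) at 6 h, 1.32 (0.96 to 1.68) at 12 h and 1.48 (1.12 to 1.85) at 24 h. Against PFKFB1 it was 1.88, 1.75 and 1.89, and against PFKFB2 1.97, 1.75 and 1.72. PFKFB4 exceeded PFKFB2 by 0.45 (0.12 to 0.77) at 6 h and 0.43 (0.10 to 0.76) at 12 h, and by 0.24 (-0.09 to 0.57) at 24 h. Against PFKFB1 the differences of PFKFB4 were 0.35, 0.43 and 0.41, with intervals that include 0 (at 12 h -0.13 to 0.99). PFKFB2 minus PFKFB1 was 0.17 (-0.12 to 0.46) at 24 h. In all 19 of 27 intervals excluded 0, and the limma fit of all probe sets relative to the reference gene called 20. The additional call was PFKFB4 minus PFKFB1 at 12 h. Those fits called from 1.63% to 97.6% of all probe sets, because every probe set is set against a gene that may itself have changed, so nothing is read from that count beside the intervals.

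**Figure D3:**
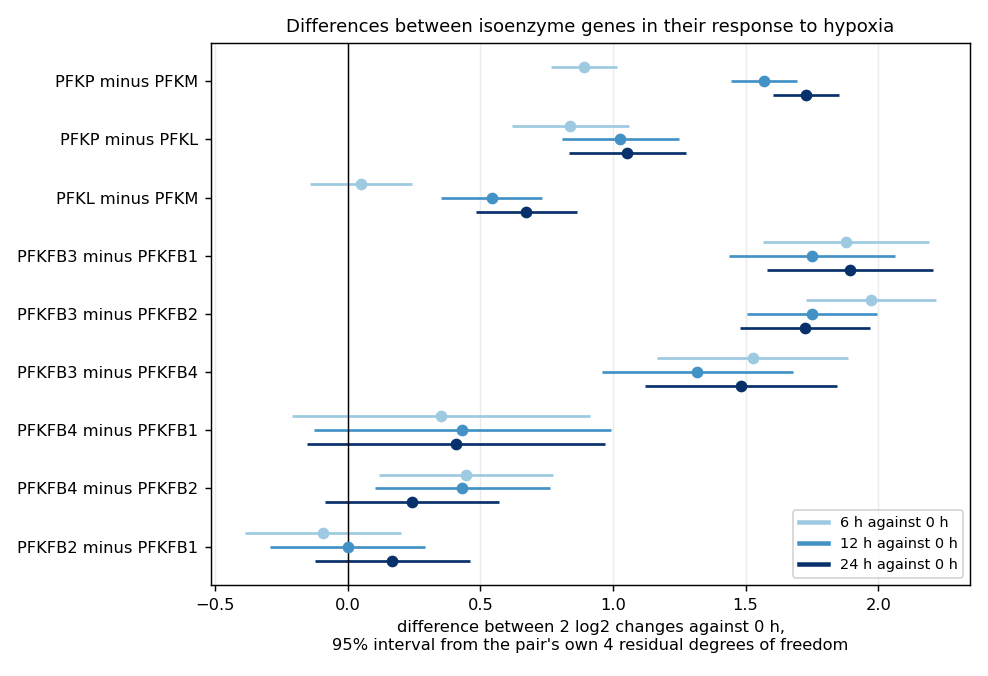
Difference between the log2 changes of 2 isoenzyme genes at 6, 12 and 24 h, with 95% intervals from the pair's own residuals. Each gene is read by its brightest probe set. The PFKP pairs and the PFKFB3 pairs lie above 0 at each time, and the PFKFB1 and PFKFB2 pair spans 0 (0.17 at 24 h).

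Most other glycolytic enzyme genes rose as well. Of 19 measured, 6 were called higher at 6 h and 13 at 12 and at 24 h, the others were not called (backgrounds as above), and the median changes were 0.24, 0.59 and 0.70. Read by the brightest probe set of each gene, the largest rises at 24 h were in the hexokinase gene HK2 (1.71 ± 0.07), which traps glucose in the cell, PGK1 (1.32 ± 0.06), the first ATP-yielding step, and the enolase gene ENO2 (1.18 ± 0.11). The 3 dimmer probe sets of PGK1 rose by 1.86, 1.67 and 1.75, so the order of HK2 and PGK1 depends on the probe set. A dimmer second probe set of HK2 fell by 0.37 (adjusted p = 0.00542). The enzymes on either side of phosphofructokinase rose by amounts near that of PFKL at 24 h, GPI by 0.85, ALDOA by 0.78 and ALDOC by 0.80. LDHA, which makes lactate, rose by 0.66. The pyruvate kinase gene PKM was at -0.02 (adjusted p = 0.901), while its dimmer probe set rose by 0.28 (adjusted p = 0.0401).

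Of 8 measured genes that act against phosphofructokinase or in gluconeogenesis, 1 was called higher at 12 h (background 6.36%) and 2 at 24 h (background 6.86%). The others were not called, and the median change was 0.04 at 24 h. TIGAR, a phosphatase of fructose 2,6-bisphosphate, rose by 0.27 (adjusted p = 0.0376) and the gluconeogenic gene PCK2 by 0.36 at 24 h. The fructose bisphosphatase genes FBP1 and FBP2 were at 0.06 and 0.07, from levels of 5.16 and 5.12 at 0 h. Within an array PFKFB3 gained 1.54 on TIGAR by 24 h (95% interval 1.31 to 1.78).

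AMP-activated protein kinase phosphorylates PFKFB2 and PFKFB3, and 3 of its 6 measured subunit genes fell at 24 h, PRKAA1 by 0.29, PRKAG1 by 0.29 and PRKAB1 by 0.26 (background 7.8% lower). The dimmer probe set of PRKAB1 fell by 0.49 and that of PRKAA1 was at -0.05 and not called. Of 5 genes of the ubiquitin ligases that degrade PFKFB3, BTRC fell by 0.35 and CDC27 by 0.32 at 24 h. The other probe sets of BTRC were at -0.35, which was called, and 0.17, which was not, and the other 3 probe sets of CDC27 were at -0.08, 0.13 and 0.01 and not called. Of 5 HIF subunit genes EPAS1 was called lower at each time, by 0.38, 0.44 and 0.30 at 6, 12 and 24 h (backgrounds 0.855%, 9.85% and 7.8% lower). At 24 h the dimmer probe set of EPAS1 was at -0.20 and not called, and HIF1A was at -0.11 (limma adjusted p = 0.395).

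**Figure D4:**
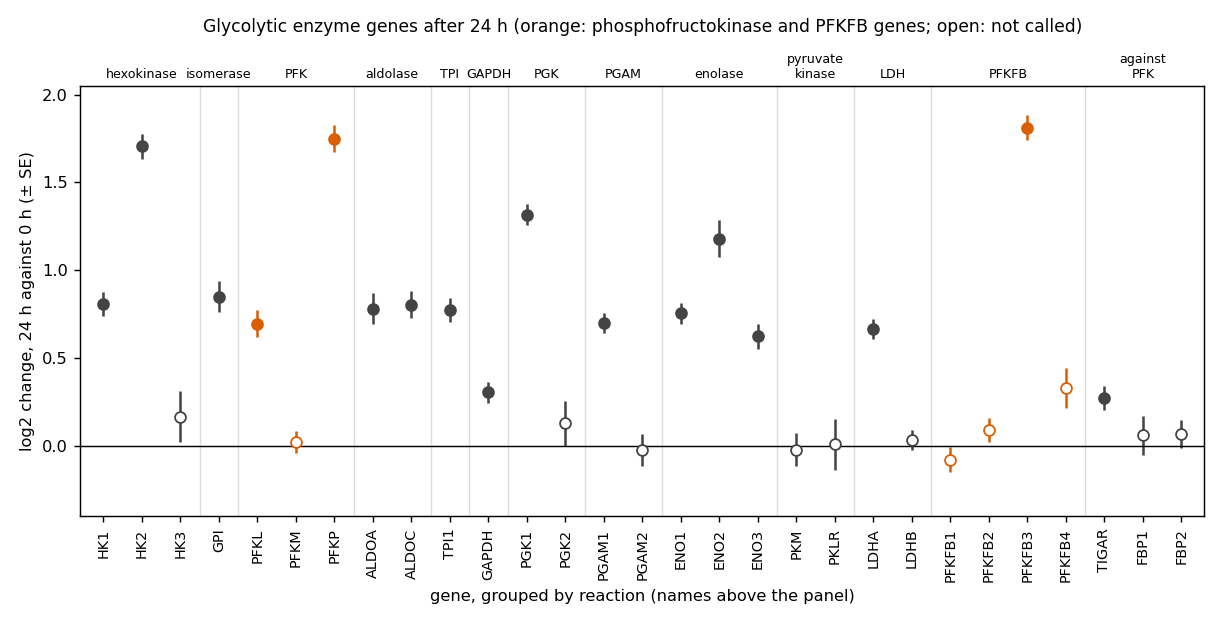
Log2 change at 24 h against 0 h, with standard errors, of glycolytic enzyme genes in the order of their reactions, followed by PFKFB genes and enzymes acting against phosphofructokinase; filled points were called. PFKFB3 (1.81), PFKP (1.75) and HK2 (1.71) are the highest of the genes drawn, each read by its brightest probe set (a dimmer one of PGK1, not drawn, rose by 1.86), and PFKM and PKM lie near 0.

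Genes with the time course most like each member called by the F-test were found by the root mean square difference over the 3 changes, among 1567 genes that test called. Nearest to PFKFB3 were BHLHE40 (difference 0.06 log2 units, with changes of 1.83, 1.77 and 1.80), HK2 (0.07) and VEGFA (0.07), with Pearson's r over the 8 arrays of 0.997, 0.998 and 0.992. Nearest to PFKP were BEND5 (0.11, with changes of 1.08, 1.56 and 1.88), FAM162A (0.16) and BNIP3L (0.19). Nearest to PFKL were LRP1 (0.06, with changes of 0.17, 0.54 and 0.64), ENO1 (0.06) and PLEKHS1 (0.07). The correlations share the 4 times of 8 arrays and are descriptions only.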

How the data were processed

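Expression was measured on 8 single-colour Affymetrix arrays, 2 at each of 4 times. The table deposited by the authors holds RMA values, 1 per probe set and array, on the log2 scale. RMA is named in the submitters' processing notes, and its version is not given in the sources used here. RMA makes arrays alike in distribution, so a change is relative to the rest of the array. Array medians lay between 6.69 and 6.73, and depth has no meaning here: the number of arrays limits the precision. Gene names come from the annotation of the platform, 19070 with 1 symbol, 1043 with several and 2164 with none listed, and symbols were updated through Entrez identifiers (19058 matched RefSeq, GRCh38.p14). After removal of 62 controls, 22215 probe sets were fitted with limma 3.58.1 in R 4.3.3 (group means, lmFit, eBayes, two-sided tests, 4 residual degrees of freedom plus 3.70 from the prior). P-values were adjusted by Benjamini-Hochberg within each comparison. A gene outside the members is read by its brightest probe set. Dim probe sets were kept. The limma procedure was tested on simulated data with independent noise and changes planted at 6 h only. That test did not cover the isoenzyme differences.

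Isoenzyme differences were first fitted with limma after subtracting the reference gene from every probe set. All rows then share the residuals of the reference, which makes the prior too firm, so the intervals printed use each pair alone, a choice made after the data were seen. Named genes were every member, from each list the 3 largest called rises and 2 largest called falls at 24 h, and HK2, GPI, ALDOA, ALDOC, FBP1, FBP2, TIGAR, HIF1A, LDHA and PKM, with the 3 genes whose changes lay nearest to those of each member called by the F-test. PRKAB1 was named after its value was seen. PRKAG3 was not analysed here. Members and lists were chosen with earlier results of these data known. Alternatives were a fit per gene, a variance trend, a robust prior, filters on dim probe sets, further quantile normalization, median centring, the replicate number as a block, fits of 2 times, and leaving out each array.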

Additional observations from a re-analysis of the deposited data

Results flagged for a closer look

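Levels differed between hypoxic times for 3 probe sets, where low oxygen and time in culture cannot be told apart. PFKP was higher at 24 h than at 6 h by 0.81 (limma adjusted p = 0.00527), and at 12 h than at 6 h by 0.63 (adjusted p = 0.0439). PFKL was higher at 24 h than at 6 h by 0.62 for probe set 201102_s_at and by 0.60 for 211065_x_at (adjusted p = 0.0257 and 0.0162). In each case both later arrays lay above both 6 h arrays. With 2 arrays per time, no array could be tested as an outlier.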

How the results depend on the processing

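The rises of PFKFB3 and PFKP against 0 h were called at each time, and those of both PFKL probe sets at 12 and 24 h, in every alternative in which they were fitted. PFKM, PFKFB1 and PFKFB2 were called against 0 h in none. No called change reversed its sign. The numbers of members called against 0 h and by the F-test stayed within 1.5 times. In the alternatives that left out no single array, the share of all probe sets called at 6 h ran from 1.5% to 18.7%, in either direction. At 12 h it ran from 10.3% to 41.9%, and at 24 h from 11.5% to 40.5%. The number of isoenzyme differences called also stayed within 1.5 times, but nothing is read from that count, for the reason given above. The numbers called between hypoxic times moved, and the cause was not tested. From 6 to 12 h 1 probe set was called in the main fit (background 0.117% in either direction). An intensity trend in the variance gave 3 (background 5.59%), and fitting the 2 times alone gave 0 (background 0%). Removing the dimmer 25% or 50% of probe sets gave 2 and 3 (backgrounds 1.4% and 11.1%). Leaving out an array also moved the calls from 6 to 12 h and from 6 to 24 h. The PFKP change then lay between 0.57 and 0.69 from 6 to 12 h, and between 0.72 and 0.90 from 6 to 24 h. The lone array left is assumed to vary like the other groups. The paired fit with a replicate block gave 0 probe sets from 6 to 12 h (background 0%, PFKP limma adjusted p = 0.0969). From 6 to 24 h it gave 2 (background 0.581%, PFKL 201102_s_at 0.0514), and no other call of a member changed. Same-numbered arrays did not deviate together (correlations from -0.13 to 0.08 over all probe sets). This cannot show whether they share a culture or a batch that moves only some genes. Dim probe sets, PFKFB1, PFKFB4 and 209992_at, limit what can be read.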
